A study of Mus musculus with 12 samples.

Results

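The acyl-CoA thioesterase family is the set of genes named Acot, and 9 of its members were followed here: Acot2, Acot3, Acot4, Acot7, Acot8, Acot9, Acot11, Acot12 and Acot13. A member was represented by the array transcript that names that gene alone and had the highest mean intensity over the arrays; 9 of 9 members were measured, among 19933 genes tested. RNA of white fat (white adipose tissue, WAT) and brown fat (brown adipose tissue, BAT) from male mice, 20 weeks old, was hybridised to 1-colour Affymetrix arrays. The 4 groups were WAT and BAT, each from per2+/+ mice (WT) and from per2-/- mice (KO), with 3 biological replicates and 3 arrays in each. All mice lived under equal spells of light and dark, ate a chow diet (ProLab RMH2500 5P14) without restriction and were killed at the same time. Per2 is a repressor in the circadian clock, and the per2-/- line lacks it in every cell rather than in fat alone. The labels do not name the WAT depot, nor do they say whether WAT and BAT of one replicate number came from one animal, so p-values measure the spread between these samples.

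Acyl-CoA thioesterases cut fatty acyl-CoA into a free fatty acid and coenzyme A, the reverse of the step by which acyl-CoA synthetases activate fatty acids for oxidation or storage. The enzymes differ in where they work: Acot2 and Acot9 in mitochondria, Acot3, Acot4 and Acot8 in peroxisomes, and Acot7, Acot11 and Acot12 chiefly in the cytosol. Acot11, also called Them1 or brown-fat-inducible thioesterase, is known for its induction in brown fat by cold. Acot13, also called Them2, is a small thioesterase found with mitochondria. Several family members are targets of PPARα, the nuclear receptor that controls fatty acid oxidation genes.

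Across the 4 groups, Acot11 had the widest range of the family, from a mean of 21.1 in WAT of WT to 1930.3 in BAT of KO. In WAT, Acot11 was higher in KO than in WT by 2.63 ± 0.25 on the log2 scale (SE, n = 3 against 3, adjusted p = 0.000147 by limma), and 8 members were not called. Of all genes, 1.27% were called higher there and 1.15% lower. In BAT, limma called 0 of 9 members between the genotypes, against 0.908% of all genes higher and 0.813% lower. Acot2, Acot4, Acot11 and Acot12 were higher and Acot7 lower on every KO array than on every WT array. Over all genes, 14.2% were higher and 8.24% lower in this way. Between the tissues, Acot2, Acot8, Acot11, Acot12 and Acot13 were higher in BAT in both genotypes. Of all genes, 20.3% were called higher in BAT in WT and 20.2% in KO.

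Promoter sequence is shown because no probe sequence was used here. It covers Acot11, called between the genotypes in WAT, and also Acot2 and Acot4. In both tissues, Acot2 and Acot4 were higher on every KO array but not called, and they were picked after their values were seen. Each line holds the 250 bases before a transcription start, 5′ to 3′ on the gene's own strand, from RefSeq on GRCm38.p6. Acot11 has 2 listed starts on the minus strand of chromosome 4, an inner one with the window chr4:106799832-106800081 and an outer one with chr4:106805008-106805257. Acot2 (window chr12:83987611-83987860) and Acot4 (window chr12:84038129-84038378) lie on the plus strand of chromosome 12. Capitals mark matches to the motifs searched, and all other bases are in lower case.
Acot11 inner start: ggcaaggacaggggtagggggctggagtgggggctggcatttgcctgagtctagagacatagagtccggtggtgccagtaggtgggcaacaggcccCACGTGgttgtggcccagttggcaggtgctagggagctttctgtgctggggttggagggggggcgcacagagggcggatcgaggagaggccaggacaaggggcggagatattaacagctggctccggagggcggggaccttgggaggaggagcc
Acot11 outer start: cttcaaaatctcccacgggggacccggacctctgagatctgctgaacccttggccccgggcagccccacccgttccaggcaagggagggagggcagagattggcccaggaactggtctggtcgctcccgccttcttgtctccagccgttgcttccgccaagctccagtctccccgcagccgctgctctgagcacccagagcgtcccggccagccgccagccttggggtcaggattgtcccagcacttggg
Acot2: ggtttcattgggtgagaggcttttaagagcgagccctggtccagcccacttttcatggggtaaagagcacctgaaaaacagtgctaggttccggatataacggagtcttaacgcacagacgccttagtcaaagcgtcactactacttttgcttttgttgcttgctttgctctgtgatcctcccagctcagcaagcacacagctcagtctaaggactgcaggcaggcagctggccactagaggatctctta
Acot4: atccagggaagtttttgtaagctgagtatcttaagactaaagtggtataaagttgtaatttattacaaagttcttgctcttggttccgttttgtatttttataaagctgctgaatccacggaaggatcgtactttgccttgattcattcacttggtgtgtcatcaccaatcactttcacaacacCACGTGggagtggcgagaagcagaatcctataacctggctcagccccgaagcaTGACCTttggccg

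The motifs, searched on both strands, were the nuclear receptor half-site AGGTCA (found in 14.0% of 32851 windows of the same length), the E-box CACGTG (6.02%), the cyclic AMP response element TGACGTCA (1.55%) and the D-boxes TTATGTAA (0.819%) and TTACGTAA (0.113%). CACGTG is a palindrome, and none of the matches printed overlaps another. The inner Acot11 window held 1 CACGTG, whose first base lies 154 bases before the start. The Acot4 window held 1 CACGTG at 66 bases and 1 TGACCT, the half-site on the opposite strand, at 13 bases. The outer Acot11 window and the Acot2 window held none of these letters. Of the members, 8 of 9 had a window, and the other match among them was 1 TGACCT in the Acot12 window, 110 bases before its start. Both Acot11 windows were GC-rich, 65.2% and 66.4%, against 50.4% for Acot2, 42.4% for Acot4 and a median of 52.4% over all windows. Acot2, Acot4 and Acot3 are neighbours on chromosome 12, in the order Acot2, Acot1, Acot4, Acot3, Acot5 and Acot6 in assembly GRCm38.p6. These genes arose by duplication, so probes for one can take up RNA of another; this was not tested.

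The labels were first set against the genes that define them. Per2 read 115.6, 99.5 and 121.6 in WAT of WT and 116.1, 108.2 and 172.4 in WAT of KO, and the groups overlapped (adjusted p = 0.614 by limma). In BAT it read 174.2, 158.1 and 163.04 in WT and 138.2, 150.6 and 157.7 in KO (adjusted p = 0.773 by limma). Every KO array there lay below every WT array, as for 8.24% of all genes. The position of the probes relative to the deletion is not known here. Brown adipocyte markers (10 of 10 measured, Ucp1, Cox8b and Cidea brightest, none at 0) summed to 33100 to 37124 in BAT and to 348 to 441 in WAT of WT, where 5 of the 10 had a mean under 16. In WAT of KO they summed to 5858, 5952 and 10143, and 7 of 10 were called higher than in WT. White adipocyte markers (9 of 10) summed to 12902 to 14441 in WAT of WT and 4152 to 5116 in BAT. In WAT of KO they summed to 12015, 12177 and 24721. Skeletal muscle markers (15 of 15) summed to 399.6 to 407.8, 748 to 2091, 11264 to 45941 and 6367 to 20517 in WT and KO of WAT and then of BAT. Epididymis markers (10 of 12) summed to 64259 to 68909 in WAT of WT, to 69969, 72344 and 21302 in WAT of KO, and to 44.0 to 292.4 in BAT. Macrophage markers (9 of 10) summed to 2519 to 4652 in WAT and 849 to 1203 in BAT, hepatocyte markers (7 of 8) to 4161 to 7948 and 933 to 1925, and Schwann cell and nerve markers (7 of 10) to 379.6 to 490.6 and 1057 to 1289. Cyp2e1 made up most of the hepatocyte sum in WAT, with means of 5918 in WT and 5204 in KO, against 673 and 1410 in BAT. Of the 7 hepatocyte markers, 1 was called lower in BAT in each genotype and 0 higher. Replicate 3 of WAT of KO stood apart: its rank correlation with a BAT array reached 0.897, against at most 0.837 for any other WAT array. Among the WAT arrays it had the highest brown adipocyte, white adipocyte and macrophage marker sums and the lowest epididymis marker sum. Changed calls without it are given beside the results.

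Intensities are linear PLIER values deposited by the authors, compared here as log2(intensity + 16), which makes the fold of a dim gene smaller than its ratio of mean intensities. Calls were made where the adjusted p over all 19933 genes was under 0.05. Each probe set has its own scale, so levels are compared between groups and not between genes. In bulk tissue, fewer cells of a type and less RNA per cell cannot be told apart.

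**Figure D1:**
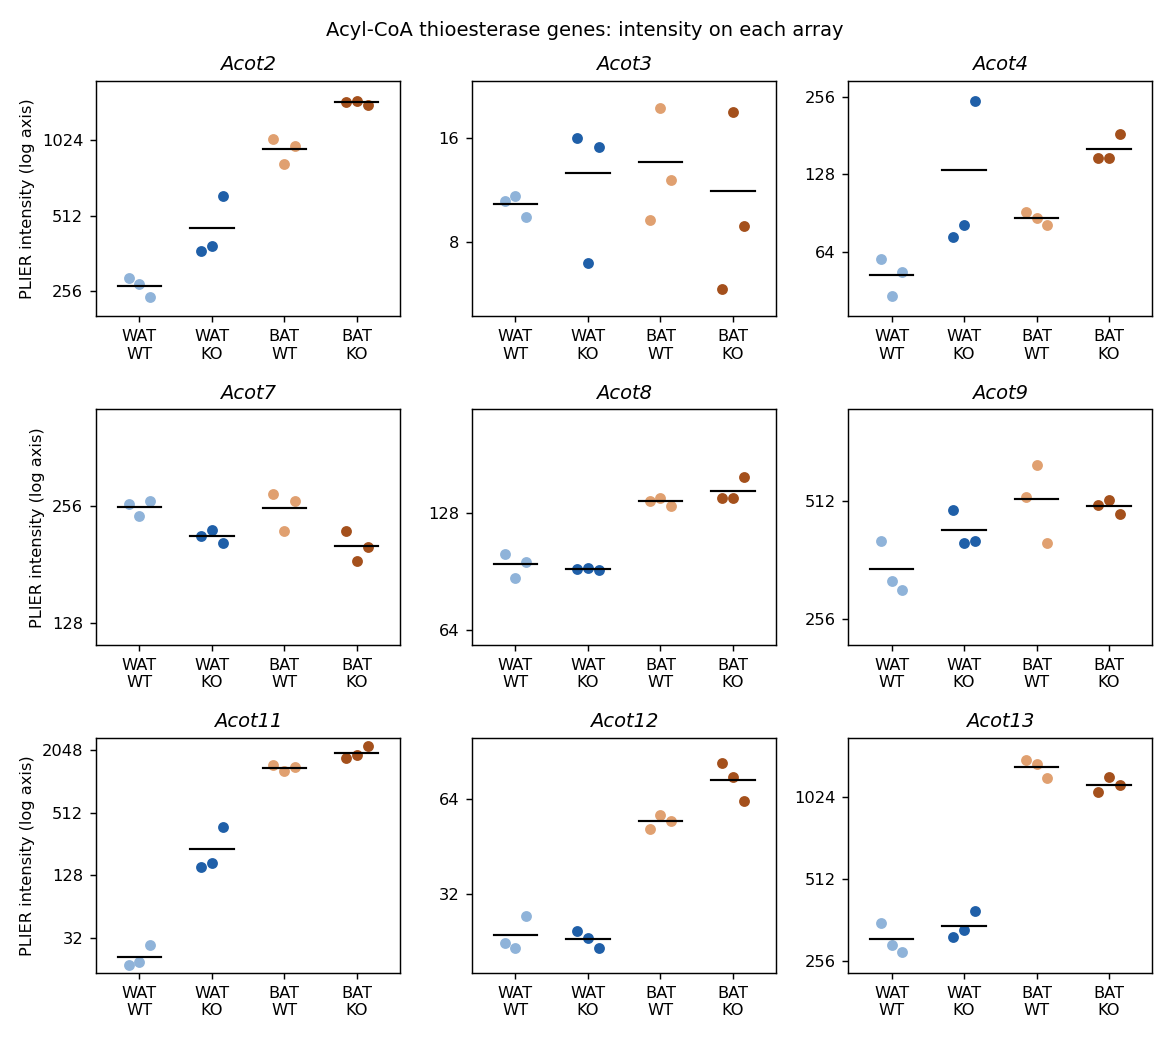
Intensity of each of the 9 members on all 12 arrays (vertical axis, PLIER intensity on a log axis; horizontal axis, the 4 groups; each point is 1 array, each line a group mean; each panel has its own vertical scale). The Acot11 groups are fully separated, from 21.1 on average in WAT of WT to 1930.3 in BAT of KO, while the Acot3 arrays of all groups intermix.

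The comparison of BAT with WAT asks which thioesterases read higher in which tissue sample. The samples also differed in RNA of other tissues. Epididymis marker sums were 21302 or more in WAT and 292.4 or less in BAT. Skeletal muscle marker sums were 2091 or less in WAT and 6367 or more in BAT. The part of these tissues in the differences below was not tested. In WT mice 6 of 9 members were higher in BAT, against 20.3% of all genes called higher and 30.3% called lower. In KO mice 5 of 9 were higher, against 20.2% of all genes higher and 26.8% lower. The median of the 9 log2 differences was 0.60 in WT and 0.58 in KO, where all genes had medians of -0.03 and 0.01.

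Of the mitochondrial enzymes, Acot2, a long-chain acyl-CoA thioesterase of the matrix, read 289, 274 and 244 in WAT of WT and 1031, 820.4 and 967 in BAT of WT. Every BAT array lay above every WAT array, and the difference was 1.74 ± 0.16 (log2, SE, 3.35-fold, adjusted p = 4.11e-06 by limma). In KO the difference was 1.67 ± 0.16 (3.18-fold, adjusted p = 8.82e-06), from 369.9, 387 and 611 in WAT to 1456, 1466 and 1417 in BAT. From low to high the groups stood as WT then KO in WAT, and WT then KO in BAT, and no neighbours in that order overlapped.

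Acot9, the other mitochondrial member, read 404, 321 and 304 in WAT of WT and 525, 635 and 401 in BAT of WT. The lowest BAT array fell just below the highest WAT array, and the difference of 0.57 ± 0.16 was called (log2, SE, adjusted p = 0.0101 by limma). In KO the arrays read 487, 401 and 406 in WAT and 502, 515 and 476 in BAT, a difference of 0.20 with a 95% interval from -0.14 to 0.55 (adjusted p = 0.315). Whether the tissue difference of Acot9 itself differed between genotypes was tested and not called (-0.36 ± 0.22, adjusted p = 0.66).

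Of the peroxisomal enzymes, Acot8, which accepts many kinds of acyl-CoA, was higher in BAT by 0.47 ± 0.08 in WT (log2, SE, adjusted p = 0.000446 by limma) and by 0.58 ± 0.08 in KO (adjusted p = 0.000118). Its arrays read 100.5, 87.3 and 95.6 in WAT of WT, 91.9, 92.4 and 91.4 in WAT of KO, 137, 139.7 and 133 in BAT of WT, and 140.0, 139.3 and 158 in BAT of KO. The 6 BAT arrays lay above the 6 WAT arrays, and the genotypes overlapped within each tissue. Acot4, which hydrolyses succinyl-CoA, read 59.7, 42.9 and 53.4 in WAT of WT and 91.2, 86.9 and 81.1 in BAT of WT. These arrays did not overlap, yet the difference of 0.60 ± 0.32 was not called (adjusted p = 0.138 by limma). In KO its arrays overlapped, with a difference of 0.42 ± 0.32 (adjusted p = 0.302). Without replicate 3 of WAT of KO, which enters the shared spread, both Acot4 differences were called, 0.60 in WT (adjusted p = 0.000589) and 0.92 in KO (adjusted p = 5.29e-05). Members higher in BAT then numbered 7 of 9 in WT and 6 of 9 in KO, against 23.1% and 21.2% of all genes. Acot3, a long-chain thioesterase of peroxisomes, was dim throughout, between 5.81 and 19.5 on the 12 arrays. Its neighbouring groups all overlapped, and no comparison called it without centring of the arrays.

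Of the remaining enzymes, Acot7, which is most abundant in brain and cleaves arachidonoyl-CoA, read 258, 240.4 and 264 in WAT of WT and 275, 220.3 and 263 in BAT of WT. The groups overlapped, and the difference of -0.01 had a 95% interval from -0.23 to 0.21 (log2). Under median centring of each array, Acot7 turned to 0.30 in WT (adjusted p = 0.0204 by limma) and 0.19 in KO (adjusted p = 0.109), and Acot3 in KO turned from -0.09 to 0.18. Median centring added 0.31 in WT and 0.27 in KO to every tissue difference, since the median intensity was 81.0 to 89.0 in WAT and 66.0 to 70.3 in BAT. With it 9 of 9 members in WT and 6 of 9 in KO were called higher, against 47.4% and 46.8% of all genes. Of all calls, the part higher in BAT was 71.1% in WT and 73.4% in KO with centring, 40.1% and 42.9% without it, and 60.6% and 61.6% under quantile normalization.

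Acot12, an acetyl-CoA hydrolase best known from liver, read 22.4, 21.7 and 27.3 in WAT of WT and 51.3, 57.0 and 54.5 in BAT of WT. It was 1.77-fold higher in BAT in WT (0.82 ± 0.10, log2, SE, adjusted p = 2.89e-05 by limma) and 2.29-fold in KO (1.19 ± 0.10, adjusted p = 2.82e-06). Every BAT array exceeded every WAT array, and in WAT the genotypes overlapped. Acot13 read 355, 294 and 278 in WAT of WT and 1402, 1347 and 1199 in BAT of WT, 4.11-fold higher (2.04 ± 0.12, adjusted p = 9.9e-08). In KO it was 3.19-fold higher in BAT (1.67 ± 0.12, adjusted p = 8.15e-07), from 315, 333 and 390.4 in WAT to 1066, 1209.5 and 1129.8 in BAT. The 2 tissues were thus separated for Acot13 on all 12 arrays.

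Acot11 had the largest tissue difference of the 9 in both genotypes. It read 17.4, 18.9 and 27.1 in WAT of WT and 1461, 1296 and 1391 in BAT of WT. The fitted difference was 5.24 ± 0.25 (log2, SE, 37.9-fold, adjusted p = 3.57e-08 by limma), and its mean in WAT of WT was 1.53% of its mean in BAT of WT. In KO the arrays read 153, 169 and 369 in WAT and 1722, 1839.8 and 2229 in BAT. The KO difference was smaller, 3.08 ± 0.25 (8.44-fold, adjusted p = 2.52e-06), and the WAT mean was 11.9% of the BAT mean.

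**Figure D2:**
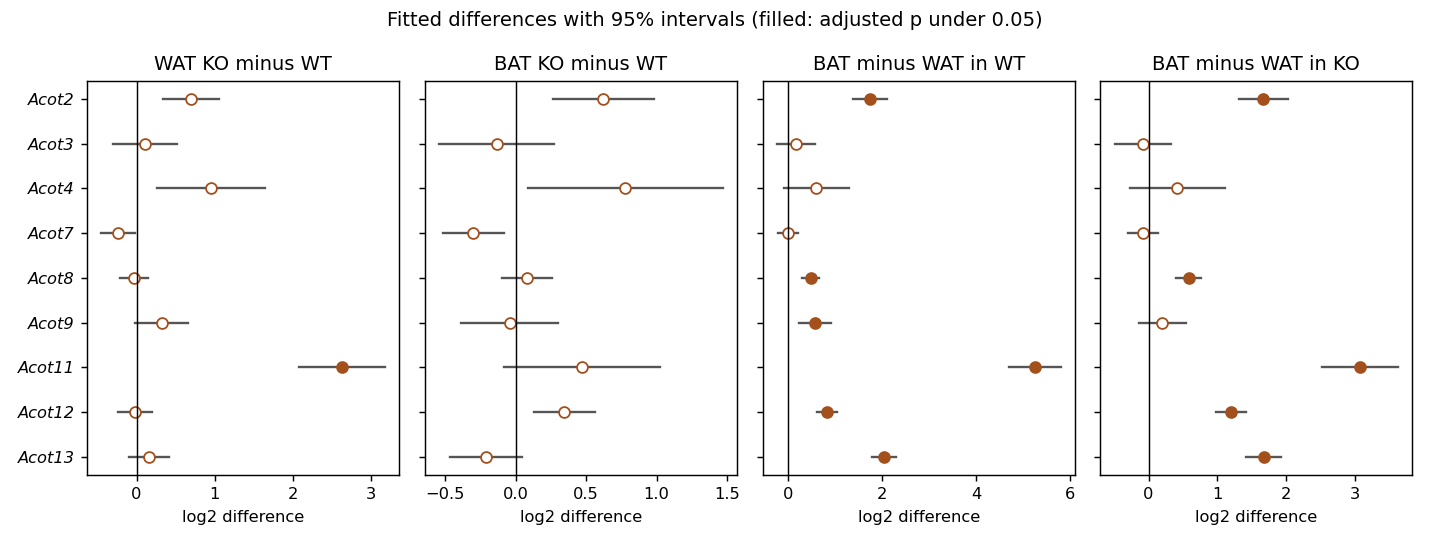
Fitted log2 differences of the 9 members (horizontal axis, log2, with a scale of its own in each panel; points, estimates; lines, 95% intervals; filled points, adjusted p under 0.05). In WAT, Acot11 at 2.63 is the filled point; in BAT none is filled, and Acot4 at 0.78 and Acot2 at 0.62 lie farthest to the right.

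Within WAT, the genotypes were compared to ask how the loss of Per2 goes with thioesterase expression in white fat. KO minus WT called 1 of 9 members higher, against 1.27% of all genes higher and 1.15% lower. The arrays of the genotypes did not overlap for 3 members that were higher (Acot2, Acot4, Acot11) and 1 that was lower (Acot7), against 9.88% and 10.7% of all genes. The median of the 9 differences was 0.16 (log2), against -0.01 over all genes.

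Acot11 was the member called. On the arrays given above, the lowest KO value in WAT, 153, exceeded the highest WT value, 27.1. The difference was 2.63 on the log2 scale with a 95% interval from 2.08 to 3.19, 6.21-fold, and it ranked 43 of 19933 by p. The means were 21.1 ± 5.19 (SD, n = 3) in WT and 230.4 ± 120.5 (SD, n = 3) in KO, and the authors' deposited table gives a fold of 10.9 between the linear means. Replicate 3 was the highest KO array by a wide margin. Without it the difference was 2.26 (adjusted p = 1.24e-06 by limma), and with 1 added in place of 16 it was 3.29 (adjusted p = 0.000273).

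Of the 10 brown adipocyte markers, 7 were called higher in these KO arrays (Ucp1, Cidea, Elovl3, Dio2, Cox8b, Cox7a1 and Otop1), as Acot11 was. The other 3 were not: Zic1 at 0.06, Prdm16 at 0.05 and Ppargc1a at 0.30 (log2, adjusted p = 0.928, 0.934 and 0.631 by limma). Ucp1, the uncoupling protein of brown fat, stood in WAT of KO at 23.5%, 24.5% and 41.0% of its mean in BAT of KO, and Cidea, a lipid droplet protein, at 17.1%, 16.1% and 27.9%. Acot11 stood at 7.90%, 8.78% and 19.1%. Of the 10 markers, 7 stood above Acot11 on each of these arrays: Ucp1, Cidea, Cox8b, Cox7a1, Zic1, Prdm16 and Ppargc1a. The last 3 of these were not called between the genotypes. In WT their WAT means already stood at 54.2%, 53.6% and 16.5% of their BAT means. Dio2 stood below Acot11 on each array (7.14%, 5.91% and 18.4%), and Elovl3 and Otop1 above it on some and below it on others. Replicate 3 had the highest share for Acot11, Ucp1 and Cidea, but the lowest for Prdm16 (71.7%, 67.1% and 43.9%). The share of brown adipocyte or muscle RNA in the Acot11 result was not tested.

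**Figure D3:**
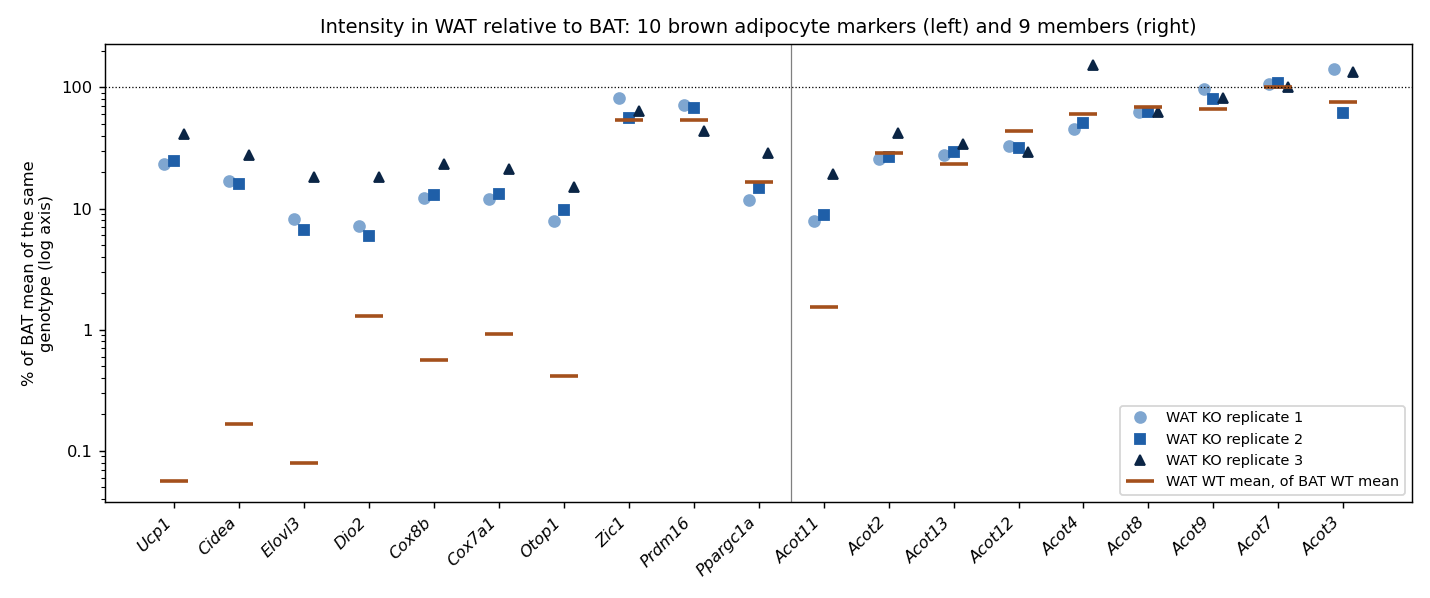
Intensity in WAT as a percent of the BAT mean of the same genotype (vertical axis, percent on a log axis; horizontal axis, the 10 brown adipocyte markers and the 9 members; points, the 3 KO arrays; dashes, the WT mean). For Acot11 the WT mean is 1.53% and the KO arrays 7.90%, 8.78% and 19.1%, while Acot13 stays between 23.5% and 34.4%.

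Acot2 read higher on every KO array, with means of 269 ± 23.1 in WT and 456 ± 134 in KO (SD, n = 3). The difference of 0.70 ± 0.16 (log2, SE, 1.62-fold) lay at the threshold, with an adjusted p of 0.0503 by limma, and over 23 alternatives the adjusted p ranged from 0.0278 to 0.27. Without replicate 3 of KO the difference was 0.47 and the adjusted p 0.0278, which made 2 of 9 members called higher, against 2.18% of all genes. Acot4 read 73.0, 81.0 and 247 in WAT of KO, each above the WT arrays. Its difference of 0.96 ± 0.32 was not called (adjusted p = 0.176 by limma), and it was 0.46 without replicate 3 (adjusted p = 0.0653).

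Acot7 read 215, 222 and 205 in WAT of KO, below every WT array, a difference of -0.23 with a 95% interval from -0.45 to -0.02 that was not called (adjusted p = 0.321 by limma). For Acot9 the difference was 0.32 ± 0.16 (adjusted p = 0.399), and for Acot13 it was 0.16 ± 0.12 (adjusted p = 0.6). Acot8 at -0.03, Acot12 at -0.02 and Acot3 at 0.11 (log2) had overlapping arrays, and the Acot8 and Acot12 signs turned under other settings.

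In BAT the same comparison made no call among the members. By limma 0 of 9 members were called, against 0.908% of all genes higher and 0.813% lower. At an unadjusted p under 0.05 there were 4 of 9 members, where all genes had 12.5%, and the authors' p-values, once adjusted, called 3 of 9 higher on linear values and 3 of 9 on natural logs, against 3.28% and 2.99% of all genes. Without replicate 3 of WAT of KO, limma called 3 of 9 higher, against 3.05% of all genes. Arrays did not overlap for 4 members that were higher and 1 that was lower in KO, against 14.2% and 8.24% of all genes. The median of the 9 differences was 0.08 (log2), against 0.03 over all genes.

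Acot2 read 1456, 1466 and 1417 in BAT of KO, above the 3 WT arrays, whose highest was 1031. The difference was 0.62 ± 0.16 (log2, SE, 1.54-fold), with an adjusted p of 0.102 by limma over all 12 arrays. The call depended on which arrays set the spread: the adjusted p was 0.0245 when the 6 BAT arrays were fitted alone and 0.00307 without replicate 3 of WAT of KO. The authors' deposited table gives a fold of 1.54, and its p on natural logs comes to 0.000158 after adjustment.

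Acot4 was likewise higher on every KO array, reading 148.5, 148.0 and 184 in BAT of KO against at most 91.2 in WT. Its difference was 0.78 ± 0.32 (log2, SE, 1.72-fold, adjusted p = 0.323 by limma), with an adjusted p of 0.0112 in the fit of 6 arrays and 0.00187 without replicate 3 of WAT of KO. The authors' deposited table gives a fold of 1.86 for Acot4, with an adjusted p of 0.000482 on natural logs. Acot11 was higher by 0.47 ± 0.25 (1.38-fold, adjusted p = 0.496), with 3 KO arrays of 1722 or more against WT arrays of 1461 or less. Without replicate 3 of WAT of KO its adjusted p was 0.0438, and on the natural logs of the authors' deposited table it was 0.00985.

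Acot12 read 83.1, 75.0 and 62.8 in BAT of KO, each above the WT arrays, with a difference of 0.35 ± 0.10 (log2, SE, adjusted p = 0.137 by limma). Acot7 read 219.9, 185 and 200.2 in BAT of KO, just below the lowest WT array at 220.3, with a difference of -0.30 ± 0.10 (adjusted p = 0.202). It was thus on the low side in KO in both tissues. The other differences were -0.21 for Acot13 (95% interval -0.46 to 0.04), 0.08 for Acot8 (-0.10 to 0.26), -0.04 for Acot9 (-0.38 to 0.30) and -0.14 for Acot3 (-0.54 to 0.27). Arrays of the genotypes overlapped for these 4 genes.

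Whether the genotype difference itself differed between the tissues was tested as BAT minus WAT. It was called lower for 1 of 9 members, Acot11, against 0.276% of all genes lower and 0.316% higher. The Acot11 difference was -2.17 ± 0.36 (log2, SE, adjusted p = 0.0188 by limma), and without replicate 3 of WAT of KO it was -1.79 (adjusted p = 0.000254), still 1 of 9 called lower, against 0.893% of all genes. The call was made in 13 of 20 alternatives, and the adjusted p ranged from 0.000254 to 0.133. For Acot2 the value was -0.08 with a 95% interval from -0.58 to 0.43, and for Acot4 -0.18 with an interval from -1.16 to 0.80; both turned positive without replicate 3. Acot12 at 0.37 and Acot13 at -0.37 had adjusted p of 0.421 and 0.51.

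The 11 other thioesterase genes listed were all measured, among them the remaining Acot genes, Hibch of valine breakdown and Ppt1, a lysosomal protein thioesterase. In WAT limma called 0 of 11 between the genotypes, with 2 at an unadjusted p under 0.05, where all genes had 13.9%, and 0 by the authors' p-values on either scale; the smallest p was that of Hibch (0.52, log2, adjusted p = 0.231). In BAT limma called 0 of 11, with 2 at an unadjusted p under 0.05 (12.5% of all genes) and 1 and 2 by the authors' p-values on natural logs and linear values. There the smallest p was that of Acot1, the cytosolic neighbour of Acot2, which read 111, 141.1 and 129 in WT and 267, 194 and 217 in KO (0.75 ± 0.21, log2, SE, adjusted p = 0.114). In WAT, Acot1 read 118, 122 and 115 in WT and 107, 119 and 54.7 in KO. In BAT over WAT, Hibch was higher by 2.10 in WT and 1.63 in KO, Acot10 by 0.67 and 0.72, and Ppt1 stood at -0.95 and -0.54; Acot1 was called higher in KO alone (1.19), and the difference of its genotype differences was 1.10 (adjusted p = 0.173). Without replicate 3 of WAT of KO, Acot1 was called higher in BAT of KO (adjusted p = 0.00269 by limma) and for the difference of differences (0.81, adjusted p = 0.036), the 1 of 11 in each. Of all 19933 genes, 608 and 194 were then called higher. Without that array 3 were higher in BAT than in WAT in WT, with Them4, against 23.1% of all genes. With all arrays the tissue comparisons called 2 higher and 1 lower in WT, and 3 higher and 1 lower in KO. Over all genes the shares were 20.3% higher and 30.3% lower in WT, and 20.2% and 26.8% in KO.

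The acyl-CoA synthetases, which run the opposite reaction, had 19 of 21 genes measured. In WAT 4 of 19 rose in KO, led by Slc27a2, a very-long-chain synthetase (1.45, log2, adjusted p = 7.84e-06 by limma), Acss1, a mitochondrial acetyl-CoA synthetase (0.55, adjusted p = 0.00465), and Acsm3, a medium-chain synthetase (1.81, adjusted p = 0.0081). In BAT 1 of 19 rose, Slc27a2 again (0.48, adjusted p = 0.0296), and 4 rose and 1 fell there without replicate 3 of WAT of KO, while in WAT 1 then fell (Acss3, -0.59, adjusted p = 0.0206). Over all genes 1.27% were called higher in KO in WAT and 0.908% in BAT by the fit of all arrays. Without that array 2.18% and 3.05% were higher, and 441 and 425 of 19933 genes were lower. The synthetase medians were 0.07 in WAT and 0.16 in BAT. In BAT over WAT 10 were higher and 2 lower in WT, against 20.3% and 30.3% of all genes, led by Slc27a2 (3.86), Acss1 (2.37) and Acsl5 (2.68). In KO 10 were higher and 3 lower, against 20.2% and 26.8%. Without replicate 3 of WAT of KO, 4 were lower in WT and 2 in KO, where 6579 and 5687 of 19933 genes were lower. The difference of genotype differences was called for Slc27a2 (-0.97, adjusted p = 0.00857), and without that array also for Acsl5 (-0.82, adjusted p = 0.0446). Over all genes 0.276% were called lower, and 0.893% without that array.

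Among PPARα target genes of fatty acid oxidation, 15 of 29 measured rose in WAT of KO, against 1.27% of all genes, with a median of 0.91 (log2). They were led by Fabp3, a fatty acid binding protein (4.01, adjusted p = 8.67e-07 by limma), Pdk4, the kinase that shuts off pyruvate dehydrogenase (3.10, adjusted p = 3.96e-06), and Hadhb, a subunit of the mitochondrial trifunctional protein (1.86, adjusted p = 5.34e-05). Mean Fabp3 was 14.2 and 491.6 in WT and KO white fat, against 4185 in WT brown fat. For Pdk4 these means were 79.3, 831.6 and 3520. Cpt1a, dimmer in brown fat, did not rise (802.5, 744.7 and 114.6). Ehhadh, brighter there, was not called either (220.4, 264.0 and 583.2). How far brown adipocyte or muscle RNA enters these rises, or those of the synthetases, was not tested. In BAT limma called 0 of 29, with 5 at an unadjusted p under 0.05 (12.5% of all genes) and 5 by the authors' p-values on either scale, and Ehhadh of peroxisomal oxidation had the smallest p (0.77, adjusted p = 0.0847). Without replicate 3 of WAT of KO the counts were 16 in WAT and 4 in BAT, against 2.18% and 3.05% of all genes. In BAT over WAT 24 of 29 were higher and 1 lower in WT, against 20.3% and 30.3% of all genes. In KO 23 were higher and 1 lower, against 20.2% and 26.8%. Without that array 26 were higher in WT, against 23.1% of all genes. The difference of genotype differences was called lower for 7 of 29, against 0.276% of all genes, with Fabp3 at -4.10, Pdk4 at -2.59 and Hadhb at -1.68. Without that array it was called for 11 lower (0.893% of all genes) and 1 higher (194 of 19933 genes), Cyp4b1 (0.64, adjusted p = 0.0443 by limma). The genotype and tissue comparisons share arrays, so their values are set side by side only.

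**Figure D4:**
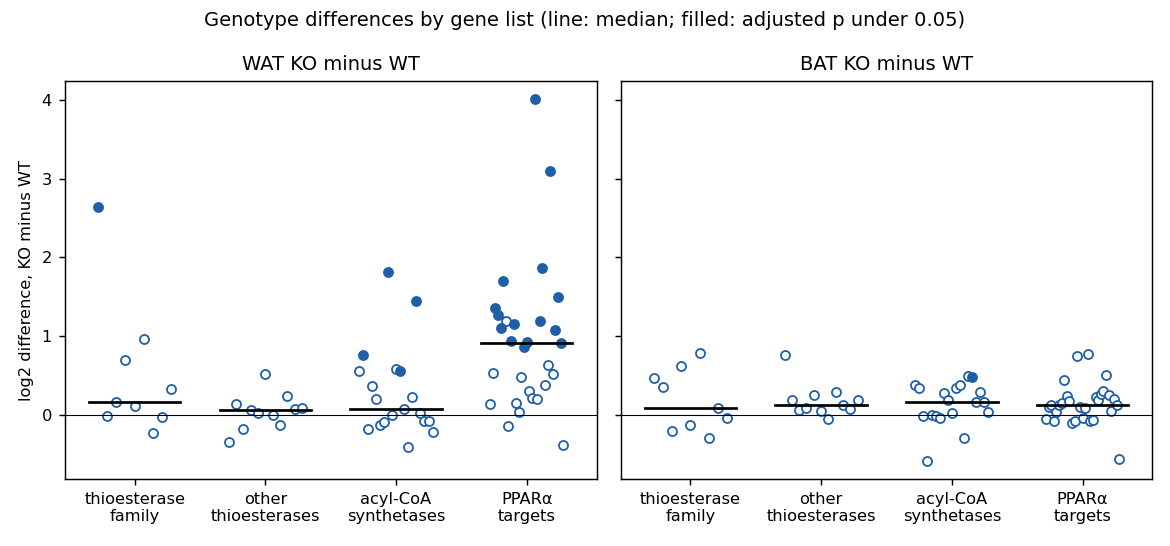
Log2 difference of KO minus WT for the genes of 4 lists (vertical axis, log2; horizontal axis, the 9 members, the other thioesterases, the acyl-CoA synthetases and the PPARα targets; 1 panel per tissue; lines, medians; filled points, adjusted p under 0.05). In WAT the medians are 0.16, 0.06, 0.07 and 0.91; in BAT they are 0.08, 0.13, 0.16 and 0.12.

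Acot11 and Acot2 had the widest ranges of group means, 5.71 and 2.36 on the log2 scale. The genes most like each were found by the root mean square difference of log2 profiles over the 12 arrays after centring, a description of the same arrays. For Acot11 these were Kng2 (0.217), Pdk4 (0.275), Phospho1 (0.333), Otop1 (0.339) and Dio2 (0.355), which encodes the deiodinase that makes active thyroid hormone in brown fat. Kng2 had group means of 13.3, 135.9, 899.5 and 1311 in WT and KO of WAT and then of BAT, the order Acot11 has. For Acot2 they were Coq5 (0.103), of ubiquinone synthesis, Abcb8 (0.106), a mitochondrial transporter, Defb6 (0.124), Deptor (0.138) and Ctsz (0.141). Coq5 had group means of 190.4, 344, 779 and 1049.8 in the same order.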

How the data were processed

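RNA of 12 adipose samples was read on 1-colour arrays. The deposited intensity values are linear PLIER values, per the submitters' processing notes. Not given in the sources used here are the scaling between arrays and the build of the design. Per the file headers, the authors used Cyber-T 8.01 (hdarray 3.71, R 2.2.1); the deposited p-value of a gene is from its regularized t test, unadjusted, on linear values or natural logs, and the deposited score is a signed fold of linear means. Of 35557 transcripts the authors tested 28925, and the brightest naming 1 gene was kept for 19933 genes. The fit was made on log2(intensity + 16) in limma 3.58.1 (R 4.3.3) with 4 group means over 12 arrays, 8 residual and 3.51 prior degrees of freedom; p-values were adjusted by Benjamini-Hochberg over all genes, and intervals are at 95%. Arrays have no read depth, and with 3 per group a log2 difference had a median SE of 0.127. The 5 comparisons were KO minus WT per tissue, BAT minus WAT per genotype, and their difference. The procedure was tested on simulated data.

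The members and the 3 pathway and 7 marker lists were chosen with earlier results of these data known. Named are all members, the 3 called genes with the smallest p per pathway list and comparison (otherwise the 1 with the smallest p), the brightest markers, and the 5 genes most like each of the 2 members with the widest range. Other brown adipocyte markers, and list genes named for a call gained without 1 array, were chosen after their values were seen. Comparisons share arrays. Alternatives were other added constants, scalings, spreads, filters, the replicate number as a block, the authors' p-values and leaving out each array.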

Additional observations from a re-analysis of the deposited data

Results flagged for a closer look

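The genotype difference of Acot11 differed between the tissues: KO minus WT in BAT less KO minus WT in WAT was -2.17 on the log2 scale (SE 0.36, n = 3 arrays per group, adjusted p = 0.0188 by limma). Acot11 was higher in KO by 2.63 in WAT and by 0.47, not called, in BAT. The difference of differences was called in 13 of 20 alternatives, and with 64 added it was -1.26 (adjusted p = 0.133 by limma). Mean intensity rose from 21.1 to 230.4 in WAT and from 1382.9 to 1930.3 in BAT. The direction of the difference of differences thus depends on the scale, log2 or linear. Brown adipocyte markers summed to 348 to 441 in WAT of WT and to 5858 to 10143 in WAT of KO, and their part in the Acot11 difference was not tested.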

How the results depend on the processing

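There were 11 alternatives besides leaving out each of 12 arrays. Use of a second array row is not among them, because no member had one. The fit of 6 arrays and the authors' p-values exist for 4 of the 5 comparisons. Among single-member results 947 stayed on their side of the threshold, 26 gained a call, 7 lost one and 18 changed sign. The 6 tissue calls in WT and the 5 in KO were kept under every alternative that measured the gene, as was Acot11 in WAT (1.72 to 3.45, log2). Members called in WAT became 2 under quantile normalization, a variance trend, brighter genes only and the authors' natural-log p-values, with Acot2 joining Acot11. All genes called higher in WAT then numbered 260, 272, 300 (among the brighter genes alone) and 261, against 253 in the main fit. Members called in BAT became 2 in the 6-array fit and 3 with either set of authors' p-values. All genes called higher in BAT numbered 247 in that fit, 596 on natural logs and 653 on linear values, against 181. The difference of genotype differences called 0 members with 64 added (Acot11 -1.26, adjusted p = 0.133 by limma). Over all genes, the WAT count fell from 482 to 127 in the 6-array fit, and the BAT count rose from 343 to 1072 on natural logs and 1068 on linear values with the authors' p-values; the cause was not tested.

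Deviations of same-numbered arrays correlated between -0.12 and 0.09, 0 of 18 pairs passed 0.1, and 3 of 12 arrays correlated best with their own number. Many of these pairs join a WT with a KO array, which come from different animals. Pairs of WAT with BAT within a genotype gave -0.04, -0.12 and 0.06 in WT and 0.01, 0.07 and -0.03 in KO. With 3 such pairs per genotype, these values cannot show whether 1 animal gave both tissues. With the replicate block, 76 genes were called in place of 118 for the difference of genotype differences, and members called stayed at 1, 0, 6, 5 and 1.

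Leaving out 1 array gave 1 to 2 members in WAT, 0 to 3 in BAT, 6 to 7 and 5 to 6 between tissues in WT and KO, and 0 to 1 for the difference of differences; over all genes the ranges were 225 to 876, 165 to 1033, 8610 to 11181, 7871 to 9920 and 59 to 372. The highest counts in WAT (876), in BAT (1033) and for the difference of differences (372) came without replicate 3 of WAT of KO. The Acot11 difference of differences lost its call without replicate 1 or 2 of WAT of WT, 1 or 3 of BAT of WT, or 1 or 2 of BAT of KO (adjusted p 0.0556 to 0.0693).

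The sign changes were of small, uncalled differences, save 1. With quantile normalization Acot8 in WAT became 0.0035 and Acot7 between tissues 0.20 in WT and 0.14 in KO. With median centring Acot12 in WAT became 0.0035, Acot7 between tissues 0.30 in WT (called, adjusted p = 0.0204 by limma) and 0.19 in KO, and Acot3 in KO 0.18. Leaving out 1 array, the genotype difference in WAT ran from -0.079 to 0.0076 for Acot8 (positive without WT 1) and from -0.063 to 0.037 for Acot12 (0.037 without WT 3, 0.0044 without KO 3). In BAT it ran from -0.33 to 0.011 for Acot3 (0.0032 without WT 2, 0.011 without KO 1) and from -0.21 to 0.11 for Acot9 (0.11 without WT 2). Between tissues, Acot7 in WT ran from -0.071 to 0.078 (0.014 without WAT 3, 0.078 without BAT 2) and Acot3 in KO from -0.28 to 0.059 (positive without BAT 1). For the difference of differences, Acot2 ran from -0.20 to 0.15 and Acot4 from -0.46 to 0.32, both positive without replicate 3 of WAT of KO.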
